A study of Mus musculus with 7 samples.

Results

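The genes described here encode proteins and peptides of dense-core granules, the vesicles in which neurons and endocrine cells store peptide hormones. They were taken by name as every probe set annotated to Chga, Chgb, Scg2, Scg3, Scg5, Pcsk1, Pcsk2, Cpe, Npy or Grp and to no other gene. The rule found 10 probe sets, of 22626 tested, for 9 of the 10 genes, with 2 probe sets for Cpe and 1 for each of the others. The expression of Pcsk2 was not analysed here. Expression was measured in MN9D, a mouse dopaminergic line that descends from a fusion of midbrain neurons of the embryo and neuroblastoma cells. The groups are 4 arrays labelled as MN9D overexpressing the alpha and beta chains of mouse hemoglobin, called globin-labelled here, and 3 arrays labelled as MN9D with an empty vector. The design text names the effects of globin expression as the question and counts 8 hybridised arrays, of which the submitters left out 1 control for quality. The labels give no promoter for the transgenes, no time point, and do not say whether a group is a clone or a pool, or whether its replicates were separate cultures, so that p-values reflect array-to-array spread alone, part or all of which may be technical.

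Granins are acidic, calcium-binding proteins that aggregate in the trans-Golgi network, help to form granules and are cut into peptides there. Prohormone convertases cut precursors after pairs of basic residues, carboxypeptidase E then trims those residues, and further enzymes amidate or cyclise the peptide ends. Chromaffin cells, sympathetic neurons and neuroblastoma lines are rich in granins, and catecholamines are stored in the same granules.

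The values are RMA expression values on the log2 scale, an array measure that carries no read depth. Differences are log2, globin-labelled minus empty vector. After a difference, ± gives the standard error from limma, and after a group mean it gives the SD (n = 4 globin-labelled and n = 3 empty vector arrays). A probe set is said to have risen or fallen where its limma p, adjusted over all 22626 probe sets, was under 0.05. That held for 39.5% of all probe sets (18.3% higher, 21.2% lower), so a call by itself was common in this comparison. RNA of whole cultures cannot tell fewer cells of a kind from less RNA per cell.

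Some facts of the whole series bear on these values. Of 5 adult alpha-globin probe sets 3 were higher in globin-labelled arrays, by 35.8-fold to 142-fold of signal, and the others, at -0.03 and 0.03, did not pass. The 3 adult beta-globin probe sets differed by at most 1.26-fold. Of these 1 rose, by 0.34 (limma adjusted p = 0.00558), with dim means of 6.61 in globin-labelled and 6.28 in empty vector arrays, and the others did not pass. The arrays thus bear out the alpha part of their label. Since some alpha-globin probe sets were flat too, these values do not settle the beta part. Array medians lay between 8.90 and 8.94. Arrays within a group correlated at 0.9985 or more, and arrays of different groups at 0.9917 or less. The dopaminergic marker Th, which encodes tyrosine hydroxylase, was bright, with 11.08 in globin-labelled and 11.78 in empty vector arrays. The midbrain factor En1 was near the bottom of the range in either group, at 3.89 and 3.91, and the dopamine transporter gene Slc6a3 was dim, at 6.36 and 6.33. Mean levels of 7 fibroblast markers lay between 6.76 and 6.82 in globin-labelled arrays and between 6.47 and 6.52 in empty vector arrays, a gap that came with Thy1, which neurons also express, while the other 6 did not pass. The mean level of 8 general neuronal markers was 9.95 to 10.01 in globin-labelled arrays and 10.10 to 10.19 in empty vector arrays. Of these 8, Stmn2 and Tubb3 fell, with differences of -1.20 and -0.80, Snap25 and Elavl4 rose, by 0.40 and 0.18, and the other 4 did not pass. The mean levels of the dopaminergic, astrocyte, endothelial and erythroid lists overlapped between the groups. Within them Th fell by 0.70 and Ddc fell by 0.22 in the dopaminergic list, Kdr fell by 0.27 in the endothelial list and Slc4a1 rose by 0.29 in the erythroid list. The mean over 6 macrophage markers was 6.04 to 6.17 in globin-labelled and 6.28 to 6.32 in empty vector arrays. In that list Cd68, a lysosomal protein, fell by 1.25, and the other 5 did not pass. The part of these markers in the results below was not tested.

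Among the 10 probe sets 2 rose, those of Grp and Chga, and 3 fell, those of Scg2, Scg5 and Cpe (the brighter of its 2 probe sets), while 5 did not pass. That is 5 of 10, beside 39.5% of all probe sets. In 7 of the 10 the arrays of the groups did not overlap, beside 43.5% of all probe sets. Their median difference was -0.02, beside 0.01 over all probe sets. The shares are those of a small list, and no test was made over it.

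**Figure D1:**
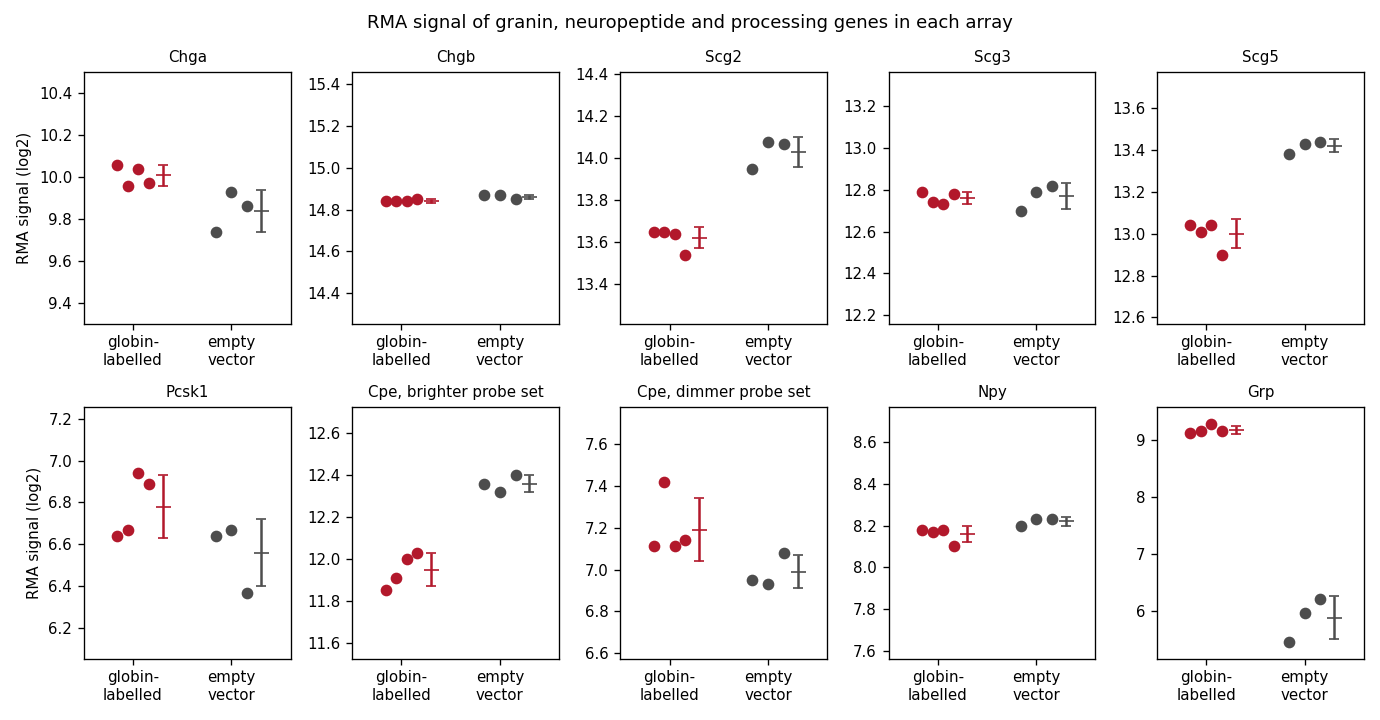
RMA signal (log2) of each probe set in each array, with 4 globin-labelled arrays on the left and 3 empty vector arrays on the right of every panel; dots are arrays and bars are the mean ± SD. Every panel has its own vertical position and spans the same height, except Grp, whose panel spans a larger range. Grp stands apart, at 9.12 to 9.28 in globin-labelled arrays and 5.47 to 6.21 in empty vector arrays, and Scg2, Scg5 and the brighter Cpe probe set are lower in every globin-labelled array.

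The 5 granins did not move as a block. Scg2, secretogranin II, is the precursor of secretoneurin. It had 13.65, 13.65, 13.64 and 13.54 in the globin-labelled arrays, against 13.95, 14.08 and 14.07 in the empty vector arrays. All 4 globin-labelled arrays lay below all 3 empty vector arrays. Scg2 fell by 0.41 ± 0.05 on the log2 scale, or 1.33-fold (95% interval -0.52 to -0.30, limma adjusted p = 0.000161).

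Scg5 encodes 7B2, a granule protein that acts as a chaperone of the convertase Pcsk2. It had 13.04, 13.01, 13.04 and 12.90 in globin-labelled arrays, against 13.38, 13.43 and 13.44 in empty vector arrays. The groups did not overlap here either. Scg5 fell by 0.42 ± 0.05, or 1.34-fold (95% interval -0.53 to -0.32, limma adjusted p = 0.000113). Scg2 minus Scg5, taken within each array, was 0.62 ± 0.02 in globin-labelled and 0.61 ± 0.04 in empty vector arrays, so the falls in signal of these probe sets were of like size. Both were bright. Scg2 stood at percentiles 98.2 and 99.0 in globin-labelled and empty vector arrays, and Scg5 at 96.2 and 97.8. Compression of bright signals means that like falls in signal need not be like falls in RNA.

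Chga, chromogranin A, is a granule-forming protein and the precursor of catestatin and vasostatin. It had 10.06, 9.96, 10.04 and 9.97 in globin-labelled arrays, against 9.74, 9.93 and 9.86 in empty vector arrays. The groups did not overlap, but the lowest globin-labelled and the highest empty vector array were close, with a gap of 0.031. Chga rose by 0.16 ± 0.05, or 1.12-fold (95% interval 0.04 to 0.28, limma adjusted p = 0.0351). This call was lost without empty vector array 1 (0.11, limma adjusted p = 0.113), empty vector array 3 (0.17, 0.0683), globin-labelled array 1 (0.15, 0.0827) or globin-labelled array 3 (0.15, 0.0823). Chga minus Scg2 within each array was -3.61 ± 0.05 in globin-labelled and -4.19 ± 0.03 in empty vector arrays, a shift of 0.58. The direction of each gene was the same under both other scalings of the arrays that were tried.

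Chgb, chromogranin B, and Scg3, secretogranin III, which tethers chromogranin A to the granule membrane, did not pass. Chgb had 14.84, 14.84, 14.84 and 14.85 in globin-labelled arrays, against 14.87, 14.87 and 14.85 in empty vector arrays. It stood at percentile 99.9 of all probe sets in either group, near the highest signal of any array (15.09 to 15.15), where array signal is compressed. Its difference was -0.02 ± 0.03 (95% interval -0.10 to 0.06, limma adjusted p = 0.656), and this interval is one of signal. Scg3 had 12.79, 12.74, 12.73 and 12.78 in globin-labelled arrays, against 12.70, 12.79 and 12.82 in empty vector arrays. The groups overlapped, with a difference of -0.01 ± 0.04 (95% interval -0.11 to 0.09, limma adjusted p = 0.87).

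**Figure D2:**
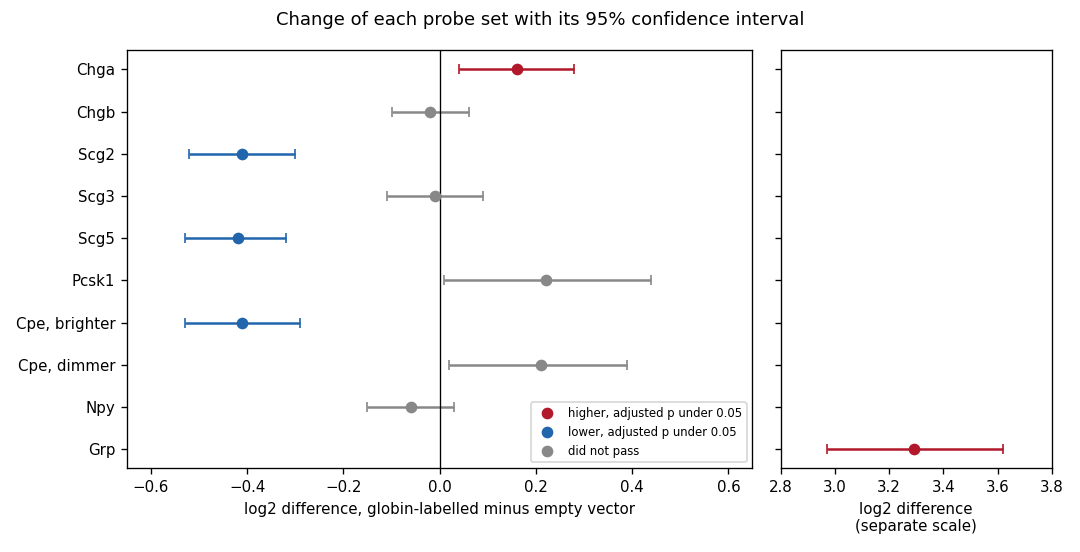
Log2 difference, globin-labelled minus empty vector, of each probe set (dot) with its 95% confidence interval from limma (bar), coloured by call; Grp has a separate scale on the right. Scg2, Scg5 and the brighter Cpe probe set sit together between -0.42 and -0.41, Chgb and Scg3 sit at -0.02 and -0.01, and Grp is at 3.29.

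Promoters are shown for 4 granins and Pcsk1, since granin genes are known targets of cyclic AMP signalling through the cyclic AMP response element, TGACGTCA. The sequences are RefSeq's for GRCm38.p6 and give the 250 bases before the annotated start, 5′ to 3′ on the gene's strand. Capitals mark TGACGTCA where it is present and otherwise the shorter TGACG, which is part of it, searched on both strands.
Chga promoter, GRCm38.p6 chr12:102554691-102554940, plus strand: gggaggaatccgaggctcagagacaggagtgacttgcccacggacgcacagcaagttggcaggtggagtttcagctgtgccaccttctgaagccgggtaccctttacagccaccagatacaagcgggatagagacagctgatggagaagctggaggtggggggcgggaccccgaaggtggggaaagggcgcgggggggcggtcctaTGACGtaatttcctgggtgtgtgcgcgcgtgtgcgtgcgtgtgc
Chgb promoter, GRCm38.p6 chr2:132781392-132781641, plus strand: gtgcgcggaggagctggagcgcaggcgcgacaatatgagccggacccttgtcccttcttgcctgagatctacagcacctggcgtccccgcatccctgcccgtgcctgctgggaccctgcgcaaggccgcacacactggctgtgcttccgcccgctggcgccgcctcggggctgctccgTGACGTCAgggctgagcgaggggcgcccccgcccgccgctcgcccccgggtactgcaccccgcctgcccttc
Scg2 promoter, GRCm38.p6 chr1:79440027-79440276, minus strand: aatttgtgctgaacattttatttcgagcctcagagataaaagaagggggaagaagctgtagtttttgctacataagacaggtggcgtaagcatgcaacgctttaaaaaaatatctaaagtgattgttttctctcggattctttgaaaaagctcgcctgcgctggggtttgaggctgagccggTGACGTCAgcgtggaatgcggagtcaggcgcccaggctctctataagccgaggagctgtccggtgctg
Scg5 promoter, GRCm38.p6 chr2:113829092-113829341, minus strand: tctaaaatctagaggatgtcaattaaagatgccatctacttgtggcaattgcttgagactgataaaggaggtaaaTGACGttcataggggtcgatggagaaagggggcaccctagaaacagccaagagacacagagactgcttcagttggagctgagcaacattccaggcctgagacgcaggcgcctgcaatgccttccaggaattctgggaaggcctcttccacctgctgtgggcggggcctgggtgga
Pcsk1 promoter, GRCm38.p6 chr13:75089607-75089856, plus strand: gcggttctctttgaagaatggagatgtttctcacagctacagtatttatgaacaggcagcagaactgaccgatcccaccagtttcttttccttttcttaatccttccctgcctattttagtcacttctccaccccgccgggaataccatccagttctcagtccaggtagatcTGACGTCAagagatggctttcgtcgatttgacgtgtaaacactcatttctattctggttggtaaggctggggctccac
Of 10 genes, 8 had such a window that was searched, Pcsk2 among them. Grp and Cpe were not searched, so the counts leave out Grp, the gene with the largest change. TGACGTCA was found in 3 of these 8, starting 72 bases before the start of Chgb, 68 bases before that of Scg2 and 78 bases before that of Pcsk1. It was found in 1.55% of all 32851 promoters in windows of this length. TGACG, in either orientation, was in 7 of the 8 and in 17.8% of all promoters, and the window without it was that of Npy. Scg2, Chgb and Pcsk1 thus hold the same 8 letters at like distances. Scg5, Chga, Scg3 and Pcsk2 have only TGACG, at 175, 44, 30 and 34 bases before their starts. In Chga the letters read TGACGTAA, which is close to TGACGTCA. The part of these letters in the differences was not tested. Chgb, near the top of the range, and Pcsk1, which was dim, would limit any such comparison. A match is a description of the letters and no measure of binding.

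Of the processing enzymes, Cpe fell on its brighter probe set and Pcsk1 did not pass. Cpe, carboxypeptidase E, removes the basic residues that convertases leave on peptide ends and also binds cargo in the trans-Golgi network. The brighter probe set had 11.85, 11.91, 12.00 and 12.03 in globin-labelled arrays, against 12.36, 12.32 and 12.40 in empty vector arrays. The groups did not overlap, and the signal fell by 0.41 ± 0.05, or 1.33-fold (95% interval -0.53 to -0.29, limma adjusted p = 0.000241). The other Cpe probe set was much dimmer, with 7.11, 7.42, 7.11 and 7.14 in globin-labelled arrays and 6.95, 6.93 and 7.08 in empty vector arrays. Its difference was in the opposite direction, at 0.21 ± 0.08, and did not pass (95% interval 0.02 to 0.39, limma adjusted p = 0.0712). Without globin-labelled array 2, at 7.42, the difference was 0.13 (limma adjusted p = 0.0888). A fall was thus seen on the brighter Cpe probe set and not on the dimmer, and the identifier of the dimmer one marks a design whose probes may also match other transcripts.

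Pcsk1 encodes the convertase PC1/3, which makes the early cuts in many prohormones. It had 6.64, 6.67, 6.94 and 6.89 in globin-labelled arrays, against 6.64, 6.67 and 6.37 in empty vector arrays. The groups overlapped, and their means stood at percentiles 24.3 and 22.0 of all probe sets. The difference of 0.22 ± 0.10 did not pass (95% interval 0.01 to 0.44, limma adjusted p = 0.0928). Without empty vector array 3, its lowest array, it was 0.13 (limma adjusted p = 0.308).

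Of the peptide precursors, Grp showed the largest change of the 10 probe sets. Grp encodes gastrin-releasing peptide, a bombesin-like peptide that acts through the receptor Grpr and is a growth factor for some neuroendocrine and neuroblastoma cells. It had 9.12, 9.16, 9.28 and 9.16 in globin-labelled arrays, against 5.47, 5.98 and 6.21 in empty vector arrays. The empty vector arrays spread more (SD 0.38) than the globin-labelled arrays (SD 0.07). Grp rose by 3.29 ± 0.14, or 9.81-fold in signal (95% interval 2.97 to 3.62, limma adjusted p = 3.9e-07). Its mean stood at percentile 53.3 of all probe sets in globin-labelled arrays and at percentile 14.8 in empty vector arrays, so the fold is against a dim signal whose background was not measured. Of the 12393 genes with a probe set of their own, each taken at its brightest probe set, Grp had the highest difference. Over all 22626 probe sets, including those shared by several genes, its difference ranked 7 by size.

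The genes beside each member on its chromosome were counted too. Of the 10 measured genes nearest to Grp in the RefSeq order, 5 on each side, 2 were called, both lower, beside 40.7% of all genes, and their differences ran from -0.26 to 0.13 with a median of 0.02. Around Scg2, 3 of 10 neighbours rose and 2 fell (median 0.06), around Scg5 3 rose and 4 fell (median 0.01), and around Cpe 1 rose and 3 fell (median -0.03). Around Chga 1 rose and 4 fell, with a median of -0.13. Members that did not pass had called neighbours as well. Around Chgb 1 rose and 4 fell (median -0.04), and around Scg3 1 rose and 3 fell (median -0.03). Around Pcsk1 0 rose and 3 fell (median -0.11), and around Npy 1 rose and 2 fell (median 0.04).

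Npy, neuropeptide Y, is stored with catecholamines in sympathetic neurons. It had 8.18, 8.17, 8.18 and 8.10 in globin-labelled arrays, against 8.20, 8.23 and 8.23 in empty vector arrays. The groups did not overlap, yet the difference of -0.06 ± 0.04 did not pass (95% interval -0.15 to 0.03, limma adjusted p = 0.246). Npy and Grp, both precursors of amidated peptides, thus had differences of -0.06 and 3.29.

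The other genes of the peptide pathway were counted with 1 probe set per gene, the brightest on average. Of 135 listed genes 114 were measured, and 23 rose and 26 fell, beside 20.6% higher and 20.1% lower of all 12393 genes. Their median difference was 0.04, beside 0.02 over all genes. The counts of each list below stand beside the same shares of all genes, and no test was made over any list.

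**Figure D3:**
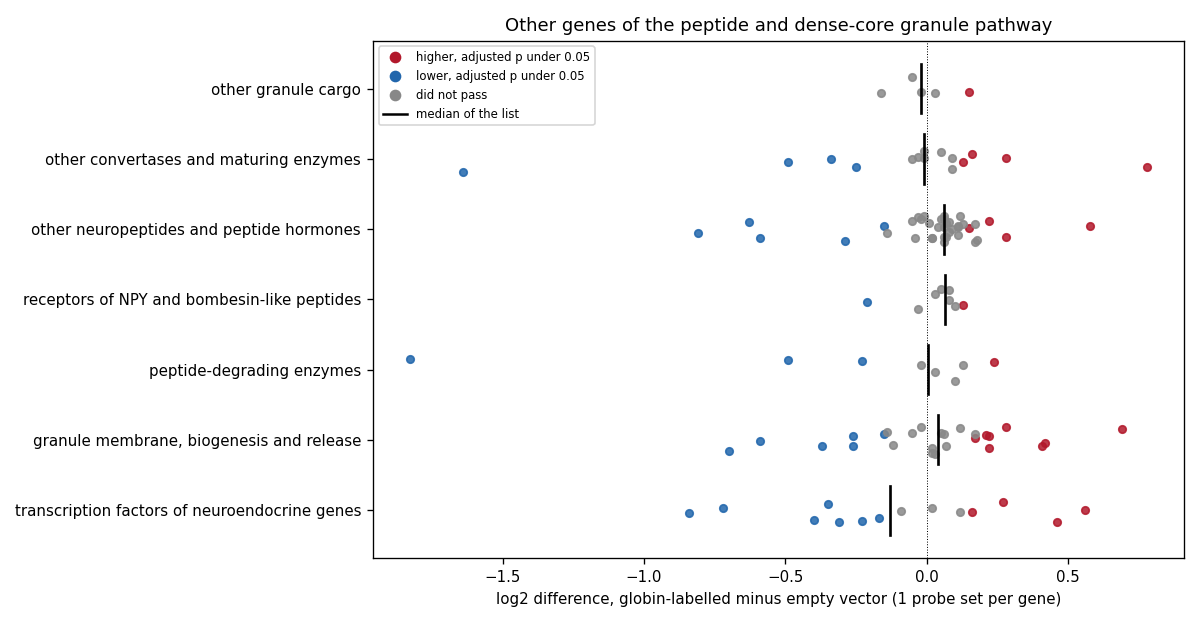
Log2 difference, globin-labelled minus empty vector, of each measured gene (dot, 1 probe set per gene) in 7 lists of other peptide and granule genes, coloured by call, with the median of each list as a bar. Most dots lie near 0, Qpct at -1.64 and Anpep at -1.83 lie far to the left, and the list of transcription factors has a median of -0.13.

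Among 15 other convertases and maturing enzymes 4 rose and 4 fell (median -0.01). Qpct, the glutaminyl cyclase that makes the pyroglutamate end of peptides such as neurotensin, had 7.31, 7.27, 7.19 and 7.11 in globin-labelled arrays, against 8.86, 8.78 and 8.93 in empty vector arrays. The groups were far apart, and Qpct fell by 1.64 ± 0.06, or 3.11-fold (limma adjusted p = 1.12e-07). Pam, the enzyme that amidates peptide ends and so completes Npy and Grp, averaged 6.26 ± 0.09 in globin-labelled and 6.75 ± 0.08 in empty vector arrays. It fell by 0.49 ± 0.06 (limma adjusted p = 0.000201), from dim signal, at percentile 18.3 in globin-labelled and 24.3 in empty vector arrays. Pcsk6, a convertase of the constitutive secretory route, rose by 0.78 ± 0.05 (limma adjusted p = 4.09e-06), and Pcsk7 fell by 0.34 ± 0.05 (limma adjusted p = 0.000439). Furin, the convertase of the trans-Golgi network, rose by 0.16 ± 0.06 (limma adjusted p = 0.0473). That call was lost without empty vector array 1 (0.11, limma adjusted p = 0.157), empty vector array 3 (0.16, 0.0924), globin-labelled array 1 (0.15, 0.0993), globin-labelled array 3 (0.14, 0.108) or globin-labelled array 4 (0.15, 0.0997).

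Of 5 other cargo genes of granules 1 rose, Nucb2, the precursor of nesfatin, by 0.15 ± 0.05 (limma adjusted p = 0.0418). It did not pass when any of 6 of the 7 arrays was left out, with limma adjusted p from 0.0512 without globin-labelled array 4 to 0.135 without empty vector array 1, and it passed only without empty vector array 2. Pcsk1n, which encodes proSAAS, an inhibitor of Pcsk1, was bright at 12.10 in globin-labelled and 12.12 in empty vector arrays, and its difference of -0.02 ± 0.05 did not pass (95% interval -0.14 to 0.10). Over all 8 probe sets of these 5 genes 2 rose, and the highest difference was 0.57. Vgf was not analysed here.

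Among 38 other neuropeptides and peptide hormones 4 rose and 5 fell (median 0.06). Adm, adrenomedullin, a vasodilator peptide, averaged 8.25 ± 0.05 in globin-labelled and 9.05 ± 0.09 in empty vector arrays, and fell by 0.81 ± 0.05 (limma adjusted p = 4.17e-06). The other named precursors had dim signals. Nts, neurotensin, fell by 0.63 ± 0.06 (limma adjusted p = 3.28e-05), to 5.60 in globin-labelled against 6.23 in empty vector arrays. Tac1, the precursor of substance P, fell by 0.59 ± 0.09 (limma adjusted p = 0.000642), with both groups, at 4.45 and 5.04, below the arrays' 10th percentile of 5.36 to 5.44. Vip, vasoactive intestinal peptide, rose by 0.58 ± 0.10 (limma adjusted p = 0.00125), with 6.28 in globin-labelled and 5.70 in empty vector arrays.

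The receptor genes Grpr, Npy1r and Npy2r were dim in either group. Of 8 measured receptors of Npy and of bombesin-like peptides, 1 rose and 1 fell. Grpr, the receptor of gastrin-releasing peptide, had 6.35, 6.38, 6.46 and 6.35 in globin-labelled arrays, against 6.24, 6.21 and 6.32 in empty vector arrays at percentiles 19.7 and 18.6 of all probe sets. It rose by 0.13 ± 0.05 (limma adjusted p = 0.0494), a call lost without any of 6 of the 7 arrays (limma adjusted p from 0.0614 without globin-labelled array 4 to 0.154 without empty vector array 2) and kept without empty vector array 3. It was also lost on renormalisation (0.10, limma adjusted p = 0.132), and the other Grpr probe set, at -0.01 ± 0.05, did not pass. Npy2r, a presynaptic receptor of Npy, fell by 0.21 ± 0.06 (limma adjusted p = 0.0155), and Npy1r, at 0.08 ± 0.08, did not pass.

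Enzymes that degrade peptides gave 1 rise and 3 falls among 8 measured genes. Anpep, aminopeptidase N, had 7.71, 7.89, 7.88 and 7.76 in globin-labelled arrays, against 9.60, 9.72 and 9.59 in empty vector arrays, and fell by 1.83 ± 0.06, or 3.56-fold (limma adjusted p = 6.45e-08). Dpp4, which clips the first residues of Npy, fell by 0.49 ± 0.05 (limma adjusted p = 5.41e-05), and its other probe set fell by 0.38 ± 0.07. Ide, which degrades insulin and other small peptides, rose by 0.24 ± 0.04 (limma adjusted p = 0.000685), with 1 of its other 3 probe sets passing. Ece2, an endothelin-converting enzyme, fell by 0.23 ± 0.04 on its brighter probe set (limma adjusted p = 0.000924) and rose by 0.41 ± 0.12 on the dimmer (limma adjusted p = 0.0224), so its direction is uncertain. The second call was lost without globin-labelled array 1 (0.40, limma adjusted p = 0.0519), 2 (0.40, 0.0533) or 4 (0.38, 0.0594), and without empty vector array 3 the difference was 0.24 (0.026).

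Among 26 genes of the granule membrane, of granule formation and of release 8 rose and 6 fell (median 0.04). Hid1, which acts in granule maturation at the trans-Golgi network, had 11.30, 11.24, 11.22 and 11.36 in globin-labelled arrays, against 11.91, 12.11 and 11.94 in empty vector arrays, and fell by 0.70 ± 0.06 (limma adjusted p = 2.24e-05). Rab27a, a GTPase that brings granules to the plasma membrane, fell by 0.59 ± 0.06 (limma adjusted p = 6.49e-05). A second Rab27a probe set fell by 0.83 ± 0.08, and the dimmest, at 0.17 ± 0.09 (0.10 without globin-labelled array 4), did not pass. Rab3a, a GTPase of vesicle docking, rose by 0.69 ± 0.06 (limma adjusted p = 1.77e-05). Cyb561, the granule membrane cytochrome that keeps ascorbate reduced for Pam, rose by 0.42 ± 0.04 (limma adjusted p = 3.91e-05). Machinery of release and of maturation thus held changes in both directions.

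Of 14 transcription factors of neuroendocrine genes 4 rose and 7 fell, beside 20.6% higher and 20.1% lower of all genes. Their median was -0.13, beside 0.02 over all genes, and no test was made over this small list. Insm1, a zinc-finger factor of neuroendocrine differentiation, had 10.97, 10.99, 10.80 and 10.97 in globin-labelled arrays, against 11.59, 11.58 and 11.78 in empty vector arrays, and fell by 0.72 ± 0.07 (limma adjusted p = 3.41e-05). Crem, a modulator that binds cyclic AMP response elements, fell by 0.84 ± 0.07 (limma adjusted p = 1.9e-05), and another of its probe sets fell by 0.29 ± 0.07. Its dimmest probe set fell by 0.24 ± 0.08 (limma adjusted p = 0.0411), a call lost without empty vector array 1 (-0.14, limma adjusted p = 0.121) or globin-labelled array 1 (-0.19, 0.097), 2 (-0.24, 0.0729) or 4 (-0.24, 0.0748). Gata2 fell by 0.40 ± 0.04 (limma adjusted p = 0.00011), and Neurod1, which was dim, rose by 0.46 ± 0.06 (limma adjusted p = 0.000189). Rest, a repressor of granin and other neuronal genes outside neurons, averaged 9.10 ± 0.08 in globin-labelled and 9.41 ± 0.07 in empty vector arrays. Its brightest probe set fell by 0.31 ± 0.05 (limma adjusted p = 0.00153), a second fell by 0.26 ± 0.07 (limma adjusted p = 0.0188) and the third, at 0.00 ± 0.05, did not pass. The call of the second was lost without empty vector array 1 (-0.27, limma adjusted p = 0.0513), empty vector array 3 (-0.18, 0.0574) or globin-labelled array 3 (-0.23, 0.0516).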

How the data were processed

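RNA of 7 MN9D samples was measured on Affymetrix mouse 430A 2.0 arrays. The values deposited by the authors are log2 expression, computed by RMA per the submitters' processing notes, with the software version not given in the sources used here. This method removes background, aligns the arrays' distributions and summarises each probe set. Array signal itself is compressed near the top of its range, which can shrink folds of bright signals. The deposited values were used as they stood. Of 22690 probe sets, 64 array controls were left out; of the 22626 tested, the platform annotation gave 1 symbol for 20380, several for 691 and none for 1555, and symbols were compared with RefSeq (GRCm38.p6; 0 updated). Groups came from the sample titles. The fit was limma 3.58.1 in R 4.3.3 (lmFit, eBayes, group as the only term, all 7 arrays, 5 residual degrees of freedom). It was two-sided, with Benjamini-Hochberg adjustment over all probe sets. The code was also run on simulated data with independent noise and added differences. That run cannot show whether the spread between replicate arrays is technical. Scanner files and batches were not used here, and the number of arrays limits precision.

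The members and lists were chosen with earlier results of these data known. Named were all probe sets of the members, up to 4 changed genes of each of 7 other lists by smallest p, and Rest, Vgf, Pcsk1n, Pam, Furin, Grpr, Npy1r and Npy2r. Alternatives covered array scaling, the variance prior, dim probe sets, array weights, each array left out, the replicate number as a block and a minimum fold of 1.5; leaving out empty vector array 1 and globin-labelled array 4 together was added after the data were seen.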

Additional observations from a re-analysis of the deposited data

Results flagged for a closer look

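Within the 4 globin-labelled arrays, 9 of 52 probe sets of the named genes had 1 array set apart from the other 3 by Dixon's test. The test weighs a gap against the range of the 4 arrays, so a small gap can be flagged. Chance gives about 1 in 20 for independent probe sets, whereas these share the same 4 arrays. Among the 10 probe sets of the granin, peptide and processing genes, 4 were flagged. Globin-labelled array 4 was the highest for Chgb (14.85) and the lowest for Scg2 (13.54) and Npy (8.10), and globin-labelled array 2 was the highest for the dimmer Cpe probe set (7.42). Of the other genes, array 4 was the highest for Cyb561 (11.57) and for the brighter Gata2 probe set (11.73), array 2 the lowest for Furin (9.59), array 1 the lowest for the dimmer Grpr probe set (4.38) and array 3 the lowest for Insm1 (10.80). Globin-labelled array 4 and empty vector array 1 also lay at one end of the second principal component, with 5.96% of the variance and loadings of 0.52 and 0.55. Without both arrays, Scg2, Scg5, the brighter Cpe probe set and Grp kept their calls and Chga lost its call (0.12, limma adjusted p = 0.115).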

How the results depend on the processing

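Grp (3.08 to 3.45), Scg2 (-0.45 to -0.39), Scg5 (-0.44 to -0.39) and the brighter Cpe probe set (-0.44 to -0.38) passed in all 14 settings other than the minimum fold, whereas Chga (0.11 to 0.21) failed in 6 of them. The others of the 10 probe sets failed in every setting run, and Pcsk1 was removed by the filter on dim signals. Leaving out each array in turn gave 4 to 5 called probe sets of these genes (1 to 2 higher, 3 lower each time), 52 to 60 of the other pathway genes (16 to 21 higher, 34 to 40 lower; 68 with all arrays, 27 and 41) and 7803 to 8271 of all probe sets (3556 to 3768 higher, 4151 to 4503 lower). The count of higher calls was also 1 without both arrays named above. A minimum fold of 1.5 left 1 called probe set of these genes (1 higher, 0 lower, with 3 lower by limma at any fold), 12 of the other pathway genes (2 higher, 10 lower) and 1159 of all (563 higher, 596 lower), by its own construction. Deviations of same-numbered arrays from their group means had correlations of -0.36, -0.30 and -0.14. Such deviations are tied to each other within a group, so these values cannot settle whether the numbers pair arrays. The labels do not say. With the replicate block, on 6 arrays, 1 probe set of these genes was higher, and Chga did not pass (0.18, limma adjusted p = 0.115), while 42 of the other pathway genes' probe sets were called (15 higher, 27 lower); Npy2r did not pass (limma adjusted p = 0.0588). No result of a named gene changed direction with a call on either side. Dim signals limit Pcsk1, Grpr, Npy1r, Npy2r, Nts, Tac1 and Vip, and Chgb is limited by its place near the top of the range. Scg2 and Scg5 were bright too, so compression may have shrunk their folds.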
